A study of Mus musculus with 6 samples.

Results

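The miRNAs described here are miR-122, the main miRNA of hepatocytes, and miR-192 with miR-194, which are abundant in the epithelium of gut and kidney and in liver. They were found by name in the deposited table as 5 of its 620 rows: miR-122-5p, miR-122b-3p, miR-122-3p, miR-192-5p and miR-194-5p. The counts of miR-122-5p and miR-122b-3p were identical in every library, so the 5 rows held 4 sets of reads. The material was small RNA of extracellular vesicles (EVs), membrane-bound particles that cells shed with RNA inside, from peripheral blood mononuclear cells (PBMCs, lymphocytes with monocytes) of wild-type (WT) mice. The 3 control libraries came from vesicles labelled untreated and the 3 IS libraries from vesicles labelled IS-stimulated, an abbreviation the labels do not spell out, and no strain, sex, age or dose is labelled. No label states that the 3 libraries of a group were separate animals or cultures, and the p-values below therefore speak only of the spread among these libraries, part or all of which may be technical.

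A miRNA is cut from a hairpin precursor as a short single strand and pairs with messenger RNAs mainly through the seed, bases 2 to 8 from its 5′ end. In liver, miR-122 is processed almost entirely from the 5′ arm of its hairpin, holds down many messenger RNAs of hepatocytes, and is widely used as a blood marker of liver injury. The miR-192 and miR-194 hairpins lie side by side and are transcribed together, under hepatocyte nuclear factors in liver and gut. A second copy of miR-194 lies next to miR-215, a close relative of miR-192.

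A mature sequence was found by name in RefSeq (GRCm38.p6) for 2 of the 5 members, miR-192-5p and miR-194-5p. They are shown with miR-215-5p and the 3′ arms of miR-194, because these letters decide which hairpin a read can be assigned to. Capitals mark the seed and each sequence runs from 5′ to 3′.
miR-192-5p: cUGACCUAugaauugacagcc
miR-215-5p: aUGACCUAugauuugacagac
miR-194-5p: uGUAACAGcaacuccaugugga
miR-194-1-3p: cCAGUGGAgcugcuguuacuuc
miR-194-2-3p: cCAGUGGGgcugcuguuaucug
Counted from the 5′ end, miR-192-5p differs from miR-215-5p by C1A, A12U and C20A, and the seed UGACCUA is the same. Of the 1679 mature names in the RefSeq table, only these 2 carry that seed, and only miR-194-5p carries GUAACAG. The 5′ arm of miR-194 is the same in both of its hairpins, so its reads cannot be assigned to either. The 3′ arms differ, miR-194-1-3p from miR-194-2-3p by A8G, C19U, U20C and C22G.

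In the GRCm38.p6 annotation (the build behind the deposited table is not given in the sources consulted), Mir194-2 (chr19:6264643-6264728) and Mir192 (chr19:6264844-6264932) lie on the plus strand with 115 bases between them and overlap no other annotated gene of GENCODE. Mir194-1 (chr1:185313319-185313385) and Mir215 (chr1:185313581-185313692) lie on the plus strand with 195 bases between them. Mir194-1 is in an intron and Mir215 in an exon of the antisense transcript 2010103J01Rik, and both are opposite an intron of Iars2. The Mir122 and Mir122b hairpins share all 59 bases of Mir122b.

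Each library held 125731 to 435468 miRNA counts in all, which makes 1 count equal to 2.30 to 7.95 CPM (counts per 1000000 counts of the library). The 6 leukocyte miRNAs listed for the labelled cell type were all present, with miR-155-5p at 0 in IS 1, and together took 0.600 to 2.22% of the counts in control and 0.771 to 2.67% in IS. The 4 red cell miRNAs took 9.34 to 18.7% in control and 12.1 to 22.3% in IS. Rows that repeat the same reads, such as miR-122b-3p, were counted once in list sums but stayed in the library totals. The shares of lists, here and below, are therefore understated. Where liver or epithelial miRNAs in these vesicle libraries came from was not tested.

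miR-122-5p was among the most abundant miRNAs of every library and varied widely between libraries of the same group. It had 30425, 5521 and 19998 counts in control 1, 2 and 3, or 112546, 23470.3 and 45923 CPM. In IS 1, 2 and 3 it had 15968, 10520 and 3994 counts, or 107023, 33152 and 31766 CPM. The highest value of each group, in control 1 and IS 1, was far above the other 4 libraries, and the ranges of the groups overlapped almost entirely. With repeated rows counted only once, miR-122-5p ranked 3rd in control 1 and IS 1, 6th in control 3 and IS 2, 9th in IS 3 and 11th in control 2. Its highest CPM was 4.80 times its lowest.

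The other rows of the miR-122 hairpin were close to empty. miR-122-3p, the passenger strand, had 4 counts in control 3 and 0 in the other 5 libraries, and miR-122b-5p had the same counts. Over all libraries this was 0.00463% of the reads of both arms (4 of 86430, exact 95% interval 0.00126 to 0.0118%, Clopper-Pearson, which covers counting error only, as the reads carry no molecular identifiers). Control 3 was the deepest library, and a count of 0 allows up to 3 counts, or 9.45 CPM in IS 2 and 23.9 CPM in IS 3, so the 9.19 CPM of control 3 cannot be told from the other libraries.

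miR-192-5p was far less abundant than miR-122-5p and varied less. It had 126, 201 and 295 counts in control 1, 2 and 3 (466, 854 and 677 CPM) and 75, 183 and 123 counts in IS 1, 2 and 3 (503, 577 and 978 CPM). The libraries with the least miR-192-5p, control 1 and IS 1, were those with the most miR-122-5p, and the groups overlapped. Its place in the abundance order lay between 63rd and 72nd.

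miR-194-5p, of which 1 copy is transcribed with miR-192, was lower again. It had 17, 28 and 52 counts in control 1, 2 and 3 (62.9, 119 and 119 CPM) and 13, 38 and 24 counts in IS 1, 2 and 3 (87.1, 119.8 and 191 CPM). It was lowest in control 1 and IS 1 too, highest in IS 3, and overlapped between the groups. It ranked between 115th and 141st.

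**Figure D1:**
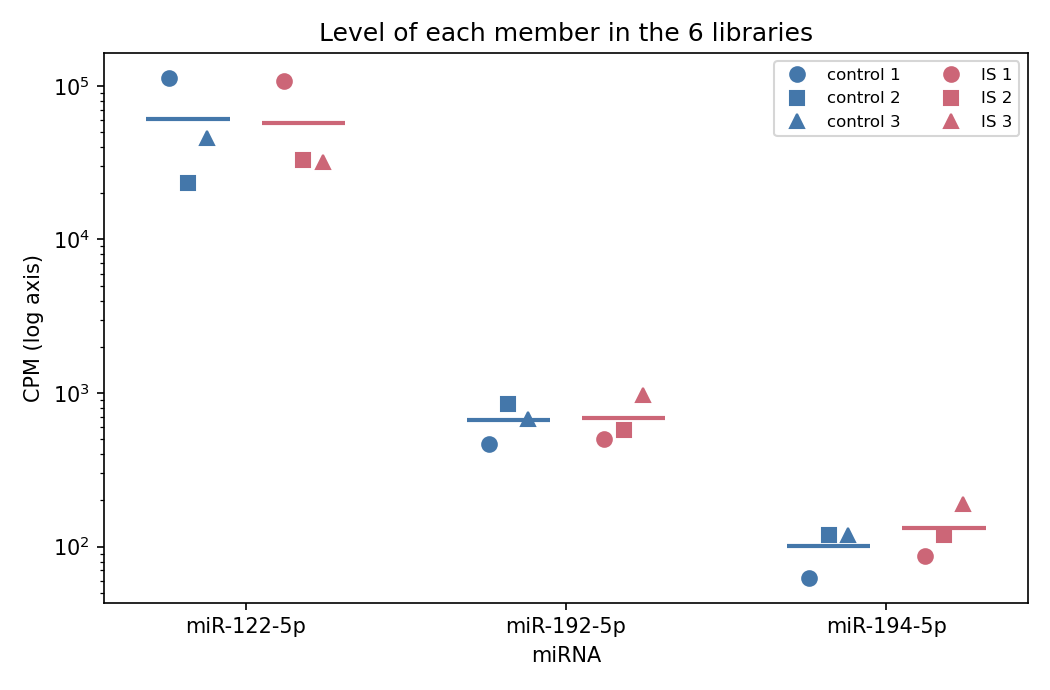
CPM on a log axis for miR-122-5p, miR-192-5p and miR-194-5p in the 3 control and 3 IS libraries, with points for libraries (same symbol for the same replicate number) and bars for group means. Control 1 and IS 1 are highest for miR-122-5p (112546 and 107023 CPM) and lowest for miR-192-5p and miR-194-5p.

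Whether IS stimulation altered the vesicle miRNAs was the question of the design, and none of the members passed the threshold. Of the 4 member rows that could be tested (miR-122-3p had too few counts), 0 had an adjusted p under 0.05, against 0 of 206 tested miRNAs (0.00%, Benjamini-Hochberg adjustment of edgeR's quasi-likelihood test). At an unadjusted p under 0.05 there were 3 of 206 (1.46%), 2 of them rows of the same reads and none of them a member. DESeq2 called 0 of 618, with 14 at an unadjusted p under 0.05, and limma 0 of 206, with 2. The group ranges of CPM did not overlap in 3 of the 206 (1.46%) and overlapped in every member.

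The group means of miR-122-5p (± SD, n = 3 each) were 60646 ± 46327 CPM for control and 57314 ± 43055 CPM for IS. The log2 fold change, IS minus control, was -0.06 (SE 0.79, 95% interval -1.80 to 1.68, edgeR adjusted p = 0.996). For miR-192-5p the means were 666 ± 194.4 and 686 ± 256 CPM, with a log2 fold change of 0.04 (SE 0.49, interval -1.04 to 1.13, edgeR adjusted p = 0.996). For miR-194-5p they were 100.4 ± 32.5 and 133 ± 53.1 CPM, with a log2 fold change of 0.40 (SE 0.73, interval -1.21 to 2.02, edgeR adjusted p = 0.996). These intervals leave room for changes of more than a doubling in either direction. The values moved with single libraries. miR-122-5p had a log2 fold change of 0.50 without control 1, 0.15 without IS 2 and -1.17 without IS 1. miR-192-5p had -0.40 without control 1 and -0.46 without IS 3, and miR-194-5p had -0.07 and -0.08. The median of all tested miRNAs was 0.02 with all libraries, -0.27 without control 1 and -0.23 without IS 3, where the filter and scaling were refitted. With the filter and scaling of all 6 libraries kept, miR-122-5p ran from -1.11 to 1.01 and miR-192-5p from -0.10 to 0.20, both on either side of 0, while miR-194-5p stayed above 0 with each library left out (0.25 to 0.53).

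**Figure D2:**
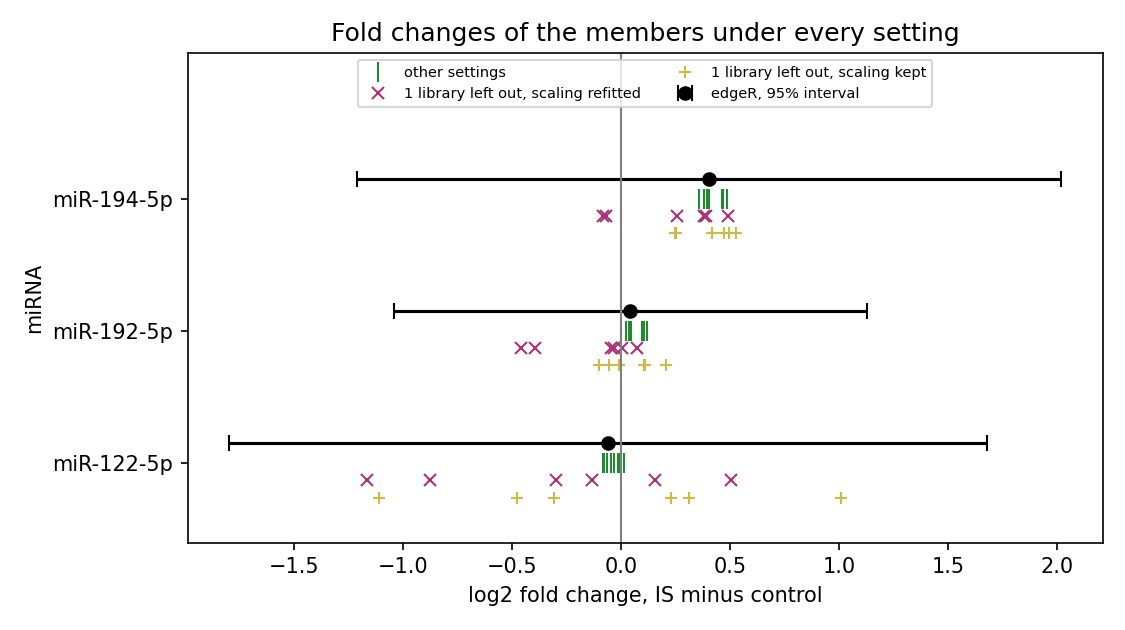
log2 fold change, IS minus control, of miR-122-5p, miR-192-5p and miR-194-5p. Black points with bars are the edgeR values with their 95% intervals, and the other marks are the values under other settings and with 1 library left out, which cross 0 for all 3 miRNAs and run from -1.17 to 1.01 for miR-122-5p.

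How far miR-122 and the miR-192 and miR-194 pair follow each other was read first from ratios of counts within a library, which no scaling can alter. miR-122-5p had 241, 27.5 and 67.8 counts for each count of miR-192-5p in control 1, 2 and 3, and 213, 57.5 and 32.5 in IS 1, 2 and 3. The ratio was thus highest in control 1 and IS 1, and each group held both high and low values. On the log2 scale (0.5 added to each count) its mean was 6.26 ± 1.57 for control and 6.19 ± 1.39 for IS (SD, n = 3 each; two-sided exact permutation p = 0.9, adjusted p = 0.9 over the 3 ratios computed). The ratio of miR-122-5p to miR-194-5p was 8.98 ± 1.62 in control and 8.55 ± 1.48 in IS on this scale (exact permutation p = 0.6, adjusted p = 0.9). With 3 libraries against 3, such a test cannot go below 0.1.

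The ratio of the cluster partners was much steadier. However, miR-122-5p itself varied more (highest CPM 4.80 times the lowest, against 2.10 for miR-192-5p and 3.04 for miR-194-5p). A steadier ratio therefore does not by itself show that the partners move together. On the log2 scale, miR-194-5p to miR-192-5p was -2.85, -2.82 and -2.49 in control 1, 2 and 3 and -2.48, -2.25 and -2.33 in IS 1, 2 and 3. Its SD over the 6 libraries was 0.25, against 1.33 for miR-122-5p to miR-192-5p. The mean was 0.37 higher in IS (-2.72 ± 0.20 for control, -2.36 ± 0.12 for IS, SD, n = 3 each; two-sided exact permutation p = 0.1, the smallest possible, and adjusted p = 0.3). The 3 IS values lay above the 3 control values by the small gap between control 3 and IS 1. With nothing added to the counts, a setting chosen after the data were seen, control 3 lay above IS 1, and the exact permutation p was 0.2 at a difference of 0.36.

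Counting error was large enough to matter for this ratio. As a share of the counts of both, miR-194-5p made up 11.9% in control 1 (17 of 143, exact 95% interval 7.08 to 18.4%) and 12.2% in control 2 (28 of 229, 8.28 to 17.2%). In control 3 it was 14.99% (52 of 347, 11.4 to 19.2%) and in IS 1 14.8% (13 of 88, 8.11 to 23.9%). In IS 2 it was 17.2% (38 of 221, 12.5 to 22.8%) and in IS 3 16.3% (24 of 147, 10.7 to 23.3%). All 6 intervals held the 14.6% of the libraries summed, and a difference in the miR-194 share between libraries was not detectable from them at this depth. By the same measure miR-192-5p made up 0.412% of the summed miR-192-5p and miR-122-5p counts in control 1 (0.344 to 0.491%) and 3.51% in control 2 (3.05 to 4.02%), with intervals that lie far apart.

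**Figure D3:**
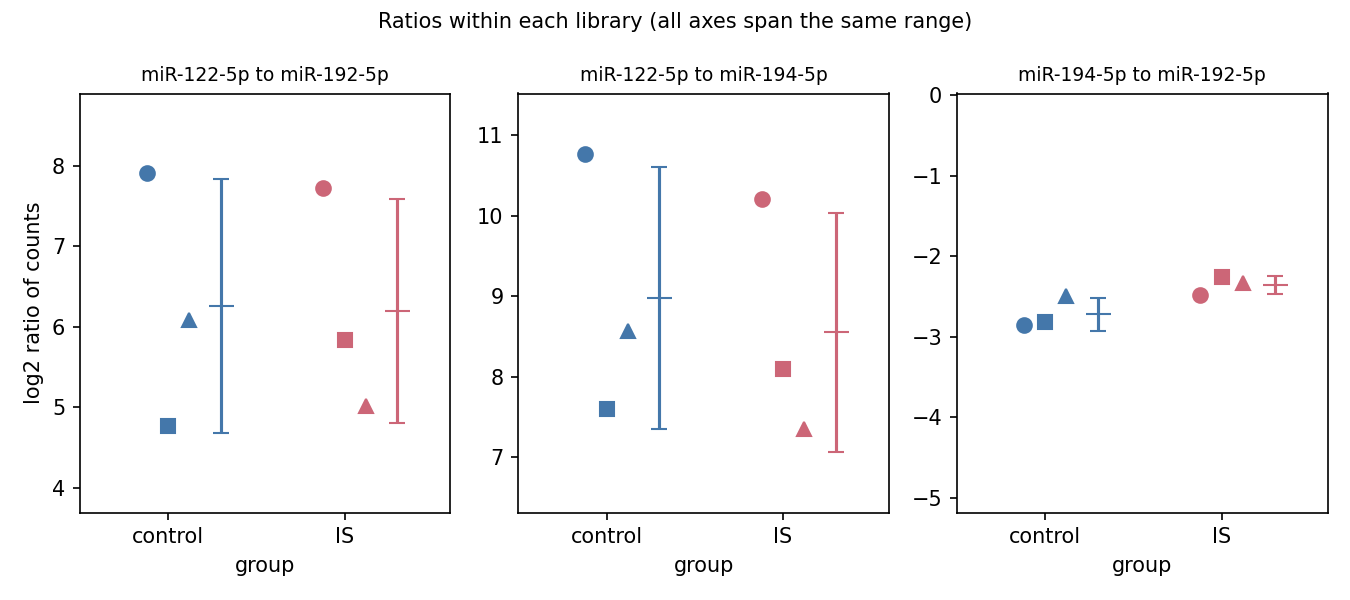
log2 ratio of counts (0.5 added) within each library for the 3 pairs, in control and IS, with points for libraries and a bar for mean ± SD at the right of each group. Every axis spans the same range, so the narrow band of miR-194-5p to miR-192-5p (SD 0.25 over the 6 libraries) can be set beside the wide spread of miR-122-5p to miR-192-5p (SD 1.33).

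**Figure D4:**
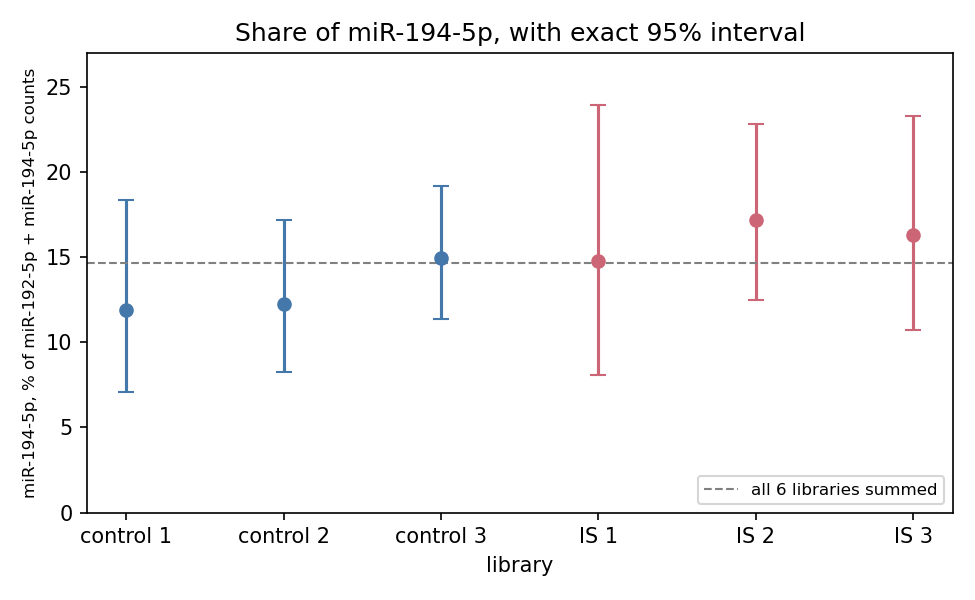
miR-194-5p as a percent of the miR-192-5p and miR-194-5p counts in each library, with exact 95% intervals (blue control, red IS). The dashed line at 14.6% is the value of all libraries summed, and it crosses all 6 intervals.

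Levels were then compared across the 6 libraries, as log2(CPM + 1) with TMM scaling, a library factor computed from the bulk of the miRNAs. For miR-122-5p and miR-192-5p the values ran against each other, with a Pearson r of -0.79 (n = 6, exact permutation p = 0.071, adjusted p = 0.12 over the 3 pairs computed) and a Spearman rho of -0.94 (exact permutation p = 0.017, adjusted p = 0.025). For miR-122-5p and miR-194-5p, r was -0.73 (exact permutation p = 0.081, adjusted p = 0.12) and rho -0.83 (exact permutation p = 0.058, adjusted p = 0.058). The cluster partners miR-192-5p and miR-194-5p ran in the same direction, with r = 0.68 (exact permutation p = 0.14, adjusted p = 0.14) and rho = 0.94 (exact permutation p = 0.017, adjusted p = 0.025). None of the 3 values of r passed the threshold, and the rank correlations of 2 pairs did. Both rest on the order of miR-192-5p, which spanned only 1.43-fold over the 6 libraries on this scale. It was nearly tied in control 3, IS 1 and IS 2, well within its counting error of about 0.12 (log2). The permutation p does not cover that error. With library totals in place of TMM scaling neither of these passed, at rho = -0.89 for miR-122-5p and miR-192-5p (exact permutation adjusted p = 0.1) and 0.77 for miR-192-5p and miR-194-5p (exact permutation adjusted p = 0.15).

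The libraries farthest from the median were control 1 and IS 1 for miR-122-5p, which stand apart from the other 4. Without them r was -0.94 for miR-122-5p and miR-192-5p with TMM scaling but -0.46 with library totals alone, and -0.26 and -0.06 for miR-122-5p and miR-194-5p, so on these scales the latter relation rests largely on those 2 libraries. With each group centred on its own mean, r for that pair was -0.95 over all 6 libraries (exact permutation adjusted p = 0.042) and -0.56 without the 2. That permutation shuffled the values across both groups. Values centred within a group are not interchangeable between groups, so this p can be too small and is not read as passing. For miR-192-5p and miR-194-5p without control 2 and IS 3, r was 0.96 with TMM scaling and 0.89 with library totals. It was 0.63 with both miR-122 rows left out of the totals. The 0.96 rests largely on control 1, as control 3, IS 1 and IS 2 were nearly tied in miR-192-5p. The scaling moved with the same libraries: the TMM factors of control 1 and IS 1 were 0.838 and 0.836, and those of the other 4 ran from 0.949 to 1.23. miR-122 reads, listed under 2 names, also enter the library total that every CPM is divided by. With library totals alone, r was -0.83 for miR-122-5p and miR-192-5p and 0.89 for miR-192-5p and miR-194-5p. With both miR-122 rows left out of the totals, r was -0.68 for the former pair (exact permutation p = 0.15, adjusted p = 0.15). For the latter it was 0.81 (exact permutation p = 0.032, adjusted p = 0.096). What part the scaling had in these relations was not tested beyond these values.

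**Figure D5:**
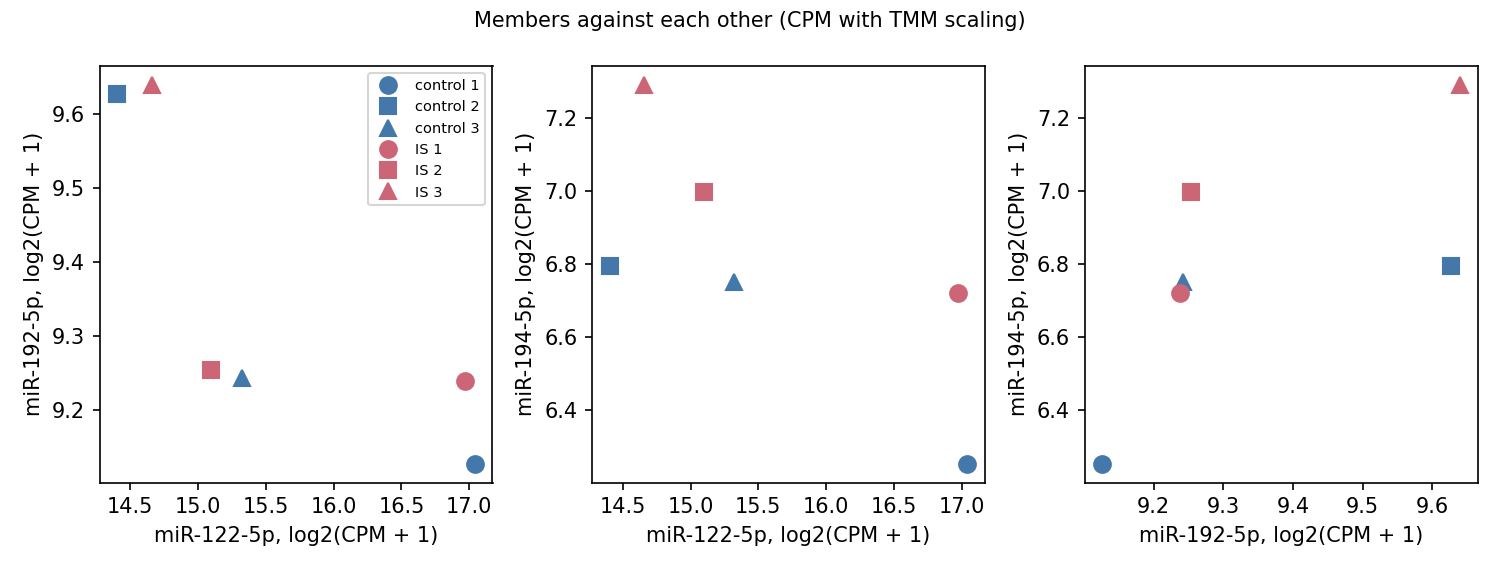
Levels of the 3 miRNAs against each other as log2(CPM + 1) with TMM scaling, 1 point per library. Control 1 and IS 1 lie at the right of the first 2 panels, with the most miR-122-5p. Control 1 has the least miR-192-5p and miR-194-5p, and IS 1 is nearly level with control 3 in both on this scale. The third panel shows miR-192-5p against miR-194-5p (rho 0.94).

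Among all tested miRNAs the members lay far apart in how much they varied. Of the 206 tested miRNAs, with the 12 repeated rows left out, miR-192-5p had the third lowest SD over the 6 libraries at 0.22 on the log2 scale, and miR-194-5p the 10th lowest at 0.34. Counting error alone would give about 0.12 and 0.30. The median was 0.87, and miR-122-5p stood at 1.15, 136th from the lowest. With library totals in place of TMM scaling the places were 23rd, 38th and 110th, with SDs of 0.42, 0.53 and 0.95 and a median of 0.90.

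The miRNAs whose levels were most like each member over the 6 libraries were not the other members. For miR-122-5p these were miR-25-3p (r = 0.92), let-7c-5p (0.91), miR-1947-5p (0.91), miR-330-5p (0.89) and miR-204-3p (0.88), and miR-192-5p lay 184th of 193. For miR-192-5p they were miR-148b-3p (0.94), miR-342-5p (0.90), miR-499-5p (0.84), miR-181b-5p (0.83) and miR-370-3p (0.82), with miR-194-5p in 23rd place. For miR-194-5p they were miR-5121 (0.94), miR-200b-3p (0.89), miR-103-3p (0.88), miR-362-5p (0.87) and miR-532-5p (0.87), with miR-192-5p in 16th place. Each r is over 6 libraries that share their depth and scaling, the highest of many, and is given as a description.

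The remaining miRNAs of the cluster were scarce. miR-215-5p, which shares the miR-192 seed, had 7, 0 and 4 counts in control 1, 2 and 3 and 8, 2 and 0 in IS 1, 2 and 3. Its 25.9 CPM in control 1 and 53.6 CPM in IS 1 were the highest values, in the libraries with the least miR-192-5p, while the 0 of control 2 and IS 3 allows up to 12.8 and 23.9 CPM. miR-194-2-3p, which belongs to the hairpin beside miR-192, had 2 counts in control 3 and 0 elsewhere, under the floor of 3 counts. miR-192-3p, miR-194-1-3p and miR-215-3p were not analysed here. Of the 7 miRNAs listed for this cluster and family, 4 had a row in the table used, 2 could be tested and 0 passed.

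The other miRNAs listed for liver were led by miR-148a-3p. This miRNA, abundant in liver but also in many other tissues, had 123617, 170924 and 78688 CPM in control 1, 2 and 3 and 142089, 43350.2 and 163738 CPM in IS 1, 2 and 3. It was highest in control 2 and IS 3 and lowest in IS 2, 3 libraries with little miR-122-5p, and its r with miR-122-5p over the 6 libraries was 0.32, given as a description (log2 fold change -0.11, SE 0.60, edgeR adjusted p = 0.996). miR-101a-3p and miR-101b-3p, made from 2 hairpins, had means of 1175 and 1252 CPM and log2 fold changes of -0.25 (SE 0.45) and -0.07 (SE 0.49). miR-148a-5p, the other arm, had a mean of 18.2 CPM and was not tested. Of the 9 names in the liver list 5 rows were tested, 2 of them the same miR-122 reads, and 0 passed in either direction. Their median log2 fold change was -0.07, against 0.02 for all 206. With a library left out it ran from -0.63 without IS 1 to 0.15 without IS 2, against -0.12 and -0.09 for all tested.

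Of 10 miRNAs listed for gut, kidney and other epithelium, all were present, 5 were tested and 0 passed. Their sum was 0.0277 to 0.0752% of the counts in control and 0.0586 to 0.122% in IS, about the level of miR-192-5p alone. All 5 tested values were above 0 under each of the 3 scalings, with a median log2 fold change of 0.60 against 0.02 for all 206, but without control 1 only 2 of them were and the median was -0.02, against -0.27 for all tested. The smallest unadjusted p of edgeR among the 5 was 0.19. miR-200a-3p, a guard of the epithelial state, had 74.0, 264 and 351 CPM in control 1, 2 and 3 and 235, 113 and 644 CPM in IS 1, 2 and 3. Like miR-194-5p it was lowest in control 1 and highest in IS 3, and its groups overlapped. The same held for miR-200b-3p but not for the rest of those tested. miR-200c-3p was highest in IS 2 (129 CPM), and miR-205-5p and miR-204-5p were highest in IS 1 (107 and 87.1 CPM).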

How the data were processed

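Per the labels' protocols, vesicle RNA was purified with Qiagen's exoRNeasy Maxi kit, and NEB's NEBNext Multiplex Small RNA set was used for the libraries. The submitters' processing notes name CASAVA 1.8 with Bowtie. Their roles, the genome build, the miRBase release and strand use are not given in the sources consulted. The authors deposited 1 table of 620 miRNAs with a raw read count per library, per the file headers. It also holds a column headed TPM, which equals the deposited count over the library total times 1000000 and is called CPM here (largest difference 4.8e-10).

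The test was edgeR's quasi-likelihood F test on the counts (TMM factors, filterByExpr with a minimum count of 10 and a minimum total of 15, group as the only term, adjusted p under 0.05), which kept 206 miRNAs. The SE was the log2 fold change over the square root of F. Ratios and correlations were tested by exact permutation. Rows with 50 or more counts in total were called repeats of each other where no library differed by more than 2 counts and by more than 6%. Named were the members, the cluster and liver list rows, and the 5 miRNAs most like each member. The miRNAs named singly from the epithelial list and those in the closing section were chosen after their values were seen. Alternatives were other scalings, filters, tools, a replicate block, added counts and each library left out. The members and lists were chosen with earlier results of these data known. The script was tested on simulated data. Versions were edgeR 4.0.16, DESeq2 1.42.0 and limma 3.58.1 in R 4.3.3, and scipy 1.17.1, numpy 2.4.6 and matplotlib 3.10.9 in Python 3.11.15.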

Additional observations from a re-analysis of the deposited data

How the results depend on the processing

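None of the 3 members tested (miR-122-5p, miR-192-5p and miR-194-5p) passed an adjusted p of 0.05 under any of the 20 alternative settings fitted (60 values, lowest adjusted p 0.97). The count of miRNAs past it was 0 under each of these settings, and 0 at an adjusted p of 0.1. Leaving out a library moved the log2 fold change of miR-122-5p between -1.17 and 0.50, that of miR-192-5p between -0.46 and 0.071, and that of miR-194-5p between -0.082 and 0.49. With the filter and scaling of all 6 libraries kept, which was added after the data were seen, the ranges were -1.11 to 1.01, -0.10 to 0.20 and 0.25 to 0.53, with 0.23 and 0.31 for miR-122-5p without IS 2 and IS 3 and with -0.058, -0.0099 and -0.10 for miR-192-5p without control 1, control 3 and IS 3. DESeq2 gave 0.015 for miR-122-5p. The log2 ratio of miR-122-5p to miR-192-5p, IS minus control, ran from -0.83 to 0.77 with a library left out, that to miR-194-5p from -1.26 to 0.46, and that of miR-194-5p to miR-192-5p from 0.30 to 0.48. The summed share of the members ran from -2.80 to 2.25 percentage points (all libraries -0.33). The r of miR-122-5p and miR-192-5p ran from -0.88 to -0.70 when a library was dropped, of miR-122-5p and miR-194-5p between -0.85 and -0.50, and of miR-192-5p and miR-194-5p between 0.43 and 0.86. For miR-122-5p and miR-194-5p it was -0.80 with library totals (exact permutation p = 0.038, adjusted p = 0.051). With each group centred it was -0.95 (exact permutation p = 0.014, adjusted p = 0.042), where shuffling across groups can make p too small. For miR-192-5p and miR-194-5p it was 0.89 with library totals (exact permutation p = 0.017, adjusted p = 0.05). Without the miR-122 rows in the total it was 0.81 (exact permutation p = 0.032, adjusted p = 0.096). None of the adjusted p with library totals or without those rows was under 0.05. The cause of these moves was not tested.

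In the labels, libraries with the same replicate number shared only that number. Their deviations from the group means correlated at 0.31, -0.32 and -0.05 for replicates 1, 2 and 3. Between libraries of different number the correlations ran from -0.38 (control 3 with IS 1) to 0.53 (control 3 with IS 2). With the replicate block the log2 fold changes were -0.02, 0.04 and 0.40, and 0 miRNAs were called. Depth left miR-122-3p (4 counts in all) untestable, and of the tested members miR-194-5p had the fewest counts, 13 to 52 per library.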

Other observations

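The libraries with the most miR-192-5p, control 2 and IS 3, stood apart in some blood cell miRNAs, picked here after their values were seen. The members of a cell type list did not all do so in the same way. Of the red cell list, miR-144-3p was lowest there (170.0 and 119 CPM, against 275 to 857 CPM in the other 4). So was miR-144-5p (340 and 493 CPM, against 637 to 4368 CPM). miR-451a was lowest in control 2 (56544 CPM), but its 103435 CPM in IS 3 exceeded control 1 and IS 1. miR-486a-5p was lowest in control 1. Of the leukocyte list, miR-223-3p was highest there (208 and 255 CPM, against 18.9 to 87.1 CPM), while miR-142a-5p was lowest there (4953 and 6212 CPM, against 10095 to 23909 CPM). The rest of that list did not stand apart in both libraries. miR-142a-3p, the other arm, had 323 and 422 CPM there, against 281 to 1106 CPM. miR-150-5p, miR-155-5p and miR-342-3p were also neither highest nor lowest in both. These are values from 1 control and 1 IS library and bear on no group difference.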
